A study of Mus musculus with 6 samples.

Results

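Scavenger and efferocytosis receptor genes, by which macrophages take up modified lipoprotein, microbes and dying cells, were followed in mouse bone marrow derived macrophages (BMDMs) 1 h after lipopolysaccharide (LPS), the outer membrane glycolipid of Gram-negative bacteria. They were Msr1, Marco, Cd36, Olr1, Scarb1, Scarb2, Mertk, Axl, Stab1 and Trem2, chosen by name as the rows of the deposited count table whose Ensembl identifier has that symbol in GENCODE M21. All 10 were found, 10 of the 55335 genes in the table, and all 10 passed the filter on low counts, Olr1 through the LPS libraries alone. The 6 libraries were total RNA from C57BL/6 BMDMs grown for 6 d with L929-conditioned medium, 3 from control cells given phosphate-buffered saline (PBS) for 1 h and 3 from cells given LPS for 1 h. No group carried an altered allele, the study used young adult male mice, and the LPS concentration is not given in the sources used here. The labels number the replicates 1 to 3 in each group and give the same numbers as batches, but nothing states that the cultures came from separate mice, so p-values measure the spread between these libraries.

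Scavenger receptors are surface proteins that bind polyanionic ligands such as oxidized low-density lipoprotein (LDL), bacterial cell wall and apoptotic cells. In efferocytosis, the engulfment of dying cells, receptors recognise phosphatidylserine on the dying cell either directly or through a soluble bridging protein, and the cell then digests the corpse and exports its cholesterol. Macrophages use both sets of receptors in host defence, in clearance of debris and, when loaded with lipid, in the formation of foam cells.

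Library totals were 37787611 to 41516330 counts. Values per library are CPM (counts scaled to a common library total) after TMM scaling, called normalized CPM, and levels of different genes are compared only per kilobase of exon (RPKM). A value of 3 counts, taken as the limit of detection, corresponded to 0.0630 to 0.0919 normalized CPM, and such limits and the intervals on count ratios cover counting error only. The 10 macrophage markers, such as Adgre1, Csf1r, Lyz2 and Mpeg1, summed to 34309 to 35495 normalized CPM (control) and 40932 to 41398 (LPS). Lyz2 alone had means of 23272 (control) and 24224 (LPS) normalized CPM, while Cx3cr1 had 7.18 and 6.68. The macrophage markers did not all move alike, and mean Cd14 went from 398 to 3623 normalized CPM and mean Fcgr1 from 396 to 284. In a check list for the LPS response, 6 of 6 genes rose past both criteria defined in the next paragraph. Markers of other cells were low. Of the neutrophil markers, Ly6g held 3 counts or fewer in every library, while S100a9 had means of 19.4 (control) and 25.0 (LPS) normalized CPM. The 6 dendritic cell markers summed to 5.05 to 6.42 normalized CPM in control and 13.0 to 13.4 in LPS libraries, and the 9 neutrophil and precursor markers to 37.5 to 40.2 and 49.9 to 52.5; their part in the results was not tested. In bulk RNA, fewer cells of a type and less RNA per cell cannot be told apart.

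The comparison asked which of these receptor transcripts were altered within the first hour of LPS. Olr1 went from the limit of detection to the level of Axl, Msr1 and Marco rose by a little under 1 on the log2 scale, and the other 7 differed between groups by less than 0.25 on that scale. Only Olr1 passed both criteria of the study (adjusted p below 0.05 and more than 1 on the log2 scale in either direction), where 10.5% of all 15687 genes tested passed upward and 10.4% downward. By the adjusted p alone, 7 of the 10 were higher in LPS libraries and 1 was lower, against 32.9% and 34.9% of all genes (quasi-likelihood test of edgeR, p-values adjusted by Benjamini-Hochberg over all genes). The count of lower genes was 2 when the replicate number was taken as a block. With library size alone in place of TMM the split was 3 higher and 7 lower (15.0% and 65.9% of all genes), and under the upper quartile it was 4 and 3 (23.6% and 46.3%). In 9 of the 10 there was no overlap between the control and the LPS range, as in 70.5% of all genes. The median log2 fold change of the 10 was 0.14, against -0.01 over all genes.

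**Figure D1:**
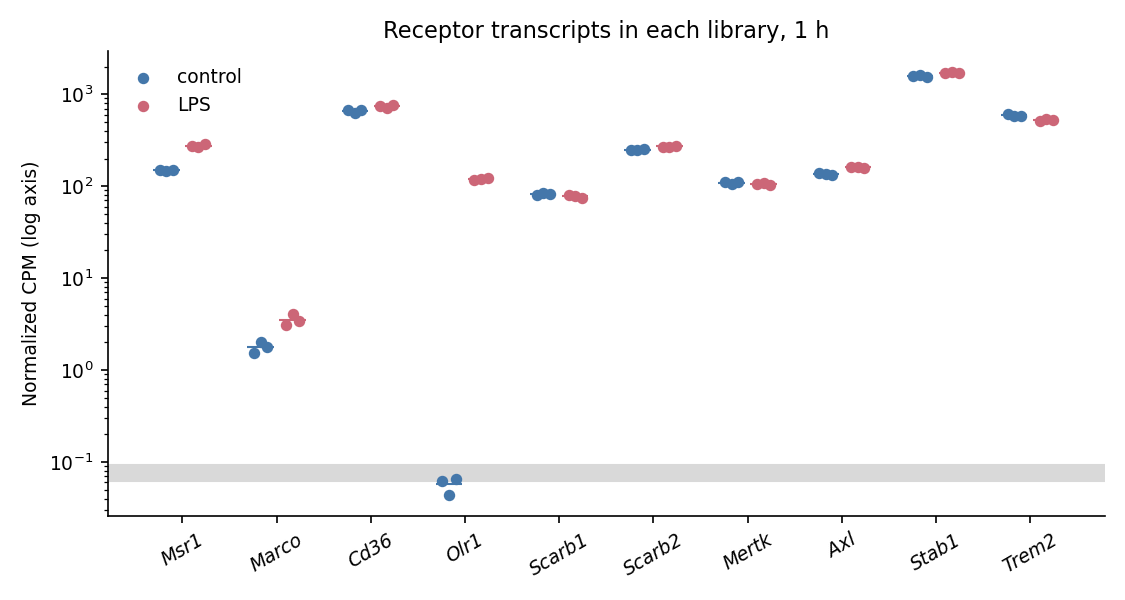
Normalized CPM (log axis) of each receptor gene in the 3 control (blue) and 3 LPS (red) libraries, with a line at each group's mean and a grey band for the value of 3 counts, 0.0630 to 0.0919. Olr1 is at the band in control and at 115.7 to 122.2 in LPS libraries, Msr1 and Marco are moderately higher in LPS, and the Mertk ranges overlap.

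Olr1 encodes LOX-1, a C-type lectin that binds oxidized LDL and is inducible in several cell types. The gene lies at chr6:129485244-129507165 on the minus strand (GRCm38) and has 8 blocks of exon sequence, 3572 bp in all. Control libraries held 3, 2 and 3 counts, or 0.0630, 0.0443 and 0.0650 normalized CPM. LPS libraries held 3884, 3883 and 4160 counts, or 115.7, 119.0 and 122.2 normalized CPM. Every control library was thus at the limit of detection and every LPS library far above it. The summed counts were 8 and 11927, a ratio of 2067 after scaling with a 95% counting interval from 1048 to 4788. The fitted log2 fold change, which depends on the prior count where controls are so low, was 10.94 ± 0.10 (SE; n = 3 libraries per group; edgeR adjusted p = 2.79e-23). Within batches 1, 2 and 3 the log2 ratio was 10.84, 11.39 and 10.88.

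The DNA just upstream of Olr1 is shown because this gene had by far the highest fold change of the 10. In the RefSeq annotation of GRCm38.p6 the 250 bases before the start are chr6:129507166-129507415, minus strand, written 5′ to 3′ with the match to the AP-1 motif TGANTCA in capitals:
Olr1: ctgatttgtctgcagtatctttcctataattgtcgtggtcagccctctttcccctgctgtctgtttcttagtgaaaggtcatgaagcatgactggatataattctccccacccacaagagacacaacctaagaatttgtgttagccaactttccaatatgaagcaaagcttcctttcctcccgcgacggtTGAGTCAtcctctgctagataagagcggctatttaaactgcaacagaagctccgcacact
The match TGAGTCA spans positions -60 to -54 from the start. Both strands of the upstream sequences of 8 of the 10 genes (Msr1 and Scarb1 are not in the table used) were searched for 7 motifs. These were the NF-kB consensus, the AP-1 motif, the CRE motif TGACGTCA, the PU.1 motif GAGGAAGT, the C/EBP motif TTGCNNAA, the SRF CArG box and the TATA box with the letters TATAAA. The AP-1 motif reads the same on both strands, and no match of 1 motif overlapped a match of another. AP-1 was found in 2 of the 8, Olr1 and Trem2, and in 6.75% of all 32851 upstream sequences of the same length. An NF-kB consensus match was found in 1, Scarb2, at positions -199 to -190, and in 3.9% of all. No other match occurred in the 8 sequences. A match describes letters and not a bound site.

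Msr1 and Marco are the class A receptors, trimers with a collagen-like stalk that bind modified LDL and bacterial surfaces. Msr1 (chr8:39581685-39642673, minus strand) had 151.9, 145.9 and 150.9 normalized CPM in control and 276.4, 265.0 and 286.2 in LPS libraries. The lowest LPS value stood far above the highest control value. The rise was 1.84-fold, a log2 fold change of 0.88 ± 0.04 (SE, n = 3) with a 95% interval of 0.81 to 0.96 and an adjusted p of 1.72e-13 in edgeR. The 3 batches gave 0.86, 0.86 and 0.92, and scaling by library size alone lowered the value to 0.48. Marco (chr1:120474538-120505024, minus strand) was measured on far fewer reads, 74, 91 and 82 counts in control against 104, 133 and 117 after LPS. These correspond to 1.55, 2.01 and 1.78 normalized CPM in control and 3.10, 4.07 and 3.44 in LPS, ranges that do not overlap. Its log2 fold change was 0.99 ± 0.14 (SE, n = 3), with a 95% interval of 0.68 to 1.29 and an edgeR adjusted p of 8.80e-06, and it was 0.58 with library size alone. Marco therefore lay just short of the fold criterion, and it passed with DESeq2 in place of edgeR (1.008). Leaving out control replicate 2, LPS replicate 1 or LPS replicate 3 also brought it past 1, with values from 0.88 to 1.09 over the 6 omissions. The ratio of Msr1 to Marco per kilobase was 29.7, 22.0 and 25.8 in control and 27.1, 19.7 and 25.3 in LPS libraries, a log2 difference of -0.11 that an exact permutation test did not separate (two-sided p = 0.6, adjusted over 7 ratios 0.6).

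Cd36, Scarb1 and Scarb2 are the class B receptors, which cross the membrane near each end of the chain. CD36 takes up oxidized LDL and long-chain fatty acids. Its transcript (chr5:17781690-17888801, minus strand) stood at 672.9, 629.6 and 682.4 normalized CPM in control and 750.7, 709.5 and 767.2 in LPS libraries. All LPS values exceeded all control values by a small margin, a log2 fold change of 0.17 ± 0.04 (SE, n = 3; edgeR adjusted p = 0.00117), which turned to -0.24 with library size alone and was 0.02 under upper quartile scaling. Scarb2 encodes LIMP-2, a lysosomal membrane protein that carries glucocerebrosidase. At chr5:92441314-92506833, minus strand, it had 249.2, 246.8 and 253.7 normalized CPM in control and 268.2, 268.3 and 275.2 in LPS libraries. The groups were again apart, with a log2 fold change of 0.11 ± 0.03 (SE, n = 3; edgeR adjusted p = 0.00359) that turned to -0.29 with library size alone and to -0.03 under upper quartile scaling.

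Scarb1 encodes SR-BI, the receptor for high-density lipoprotein. It lies at chr5:125277087-125341094 on the minus strand and had 80.9, 83.8 and 82.2 normalized CPM in control and 80.4, 78.5 and 74.6 in LPS libraries. The highest LPS value lay just under the lowest control value. Its log2 fold change of -0.08 ± 0.04 (SE, n = 3), with a 95% interval of -0.16 to -0.00165, gave an adjusted p of 0.0660 in edgeR and 0.0336 with the replicate block. It was -0.49 with library size alone and -0.22 under the upper quartile, both past the threshold, and it also passed under both other filters on low counts, without the 10 genes with the highest mean count and without LPS replicate 1. Scarb1 differed by -0.01, -0.09 and -0.14 within batches 1, 2 and 3. Per kilobase, the Scarb1 to Scarb2 ratio was 0.240, 0.251 and 0.240 in control and 0.222, 0.216 and 0.201 in LPS libraries, a log2 difference of -0.20 that no scaling can alter. The exact two-sided permutation p was 0.1, the smallest that 3 against 3 libraries allow (adjusted over 7 ratios 0.14). For Cd36 to Scarb1 the log2 difference was 0.25, with the same p and adjusted p in that exact test, and for Cd36 to Scarb2 it was 0.05 (exact p = 0.3, adjusted 0.35).

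A short gene model inside Scarb1 moved much more than its host. Gm42633, annotated as a transcript to be experimentally tested (chr5:125318681-125321444, minus strand), lies in Scarb1 on the same strand and shares 0 bp of exon with it. Its counts were 42, 38 and 35 in control and 0, 2 and 1 after LPS, a ratio of 27.7 of control over LPS with a 95% counting interval from 9.23 to 136.1. Gm42633 passed the filter on low counts through the control libraries alone. Its fitted log2 fold change, which depends on the prior count where LPS counts are so low, was -4.65 ± 0.49 (SE, n = 3; edgeR adjusted p = 1.49e-07). Per 1000 Scarb1 counts, the number for Gm42633 was 10.9, 10.0 and 9.23 in control and 0, 0.780 and 0.394 after LPS (exact permutation test, p = 0.1, the smallest possible). Total RNA libraries hold reads from introns, and whether these counts come from unspliced Scarb1 RNA or from a separate transcript was not tested. In Mertk the small nucleolar RNA Gm23172 (chr2:128780376-128780499, plus strand, as Mertk) gave 14, 8 and 10 counts in control against 2, 0 and 4 after LPS. It did not pass the filter on low counts, and its ratio of control over LPS was 3.85 (95% counting interval, 1.59 to 11.3). Both genes were singled out after their values were seen.

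Mertk and Axl are TAM receptor tyrosine kinases, a family that as a whole binds phosphatidylserine through the ligands Gas6 and protein S and restrains inflammatory signalling. Mertk (chr2:128698956-128802894, plus strand) had 111.0, 106.8 and 109.8 normalized CPM in control and 104.5, 109.3 and 104.4 after LPS, ranges that overlap. Its log2 fold change was -0.04 ± 0.03 (SE, n = 3), with a 95% interval of -0.12 to 0.03 and an edgeR adjusted p of 0.294. Scaling by library size alone or by the upper quartile gave -0.45 and -0.18, past the threshold. Axl (chr7:25757273-25788705, minus strand) had 139.3, 137.4 and 133.7 normalized CPM in control and 160.5, 163.5 and 158.9 after LPS, with a clear gap between the groups. The log2 fold change of Axl was 0.23 ± 0.03 (SE, n = 3; edgeR adjusted p = 4.80e-06), and it turned to -0.17 with library size alone.

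Setting the 2 kinases against each other removes the scaling between libraries. The ratio of Mertk to Axl per kilobase was 0.924, 0.902 and 0.953 in control and 0.756, 0.776 and 0.763 in LPS libraries. Every LPS ratio was below every control ratio, a log2 difference of -0.28 (exact permutation test, two-sided p = 0.1, the smallest possible, and 0.14 adjusted over 7 ratios). The third TAM kinase, Tyro3, held 2 to 6 counts in control, 3 to 10 after LPS, and was not tested. Of the ligands, Gas6 stood at 610 ± 9.51 normalized CPM in control and 666 ± 19.9 in LPS (SD, n = 3), with a log2 fold change of 0.13 (edgeR adjusted p = 0.00331) that turned to -0.28 with library size alone. Pros1, the gene of protein S, had 63.7 ± 0.934 and 61.6 ± 1.52 (log2 fold change -0.05, edgeR adjusted p = 0.261; -0.45 with library size alone and -0.19 under the upper quartile, both past the threshold). The ratio of Mertk to Gas6 was lower in each LPS library than in any control library, by -0.17 on the log2 scale (exact p = 0.1, adjusted 0.14).

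Stab1 encodes stabilin-1, a large receptor of macrophages and sinusoidal endothelium that binds phosphatidylserine and modified LDL. On the minus strand at chr14:31139013-31168641, it had 1597, 1631 and 1541 normalized CPM in control and 1703, 1751 and 1698 in LPS libraries. The groups did not overlap but were close, with a log2 fold change of 0.11 ± 0.03 (SE, n = 3; edgeR adjusted p = 0.00685) that turned to -0.29 under library size alone and to -0.03 under the upper quartile. Stab1 shares 112 bp of exon with Nt5dc2 on the opposite strand, which had a log2 fold change of -0.00 (adjusted p = 0.940). Per kilobase, the 4 endothelial markers Kdr, Pecam1, Cdh5 and Tek had means of 3.84, 0.317, 0.175 and 0.0137 RPKM in control and 4.55, 0.495, 0.626 and 0.0295 after LPS, against 155 and 167 RPKM for Stab1, and their part in its difference was not tested.

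Trem2 encodes a lipid and lipoprotein receptor that signals through the adaptor DAP12, the product of Tyrobp. The gene (chr17:48346401-48354147, plus strand) had 610.2, 587.4 and 574.0 normalized CPM in control and 511.8, 544.3 and 520.0 in LPS libraries. All LPS values were below all control values. Trem2 fell by edgeR's adjusted p, with a log2 fold change of -0.17 ± 0.04 (SE, n = 3; 95% interval -0.24 to -0.09; adjusted p = 4.79e-04). Batches 1, 2 and 3 gave -0.25, -0.11 and -0.14, and its direction was the same under the 4 scalings tried, down to -0.57 with library size alone. The upstream sequence is shown for comparison with Olr1, since it holds the only other AP-1 match of the 8 searched. It is chr17:48346151-48346400 on the plus strand of GRCm38.p6 (RefSeq), with the match TGAATCA at positions -9 to -3 in capitals:
Trem2: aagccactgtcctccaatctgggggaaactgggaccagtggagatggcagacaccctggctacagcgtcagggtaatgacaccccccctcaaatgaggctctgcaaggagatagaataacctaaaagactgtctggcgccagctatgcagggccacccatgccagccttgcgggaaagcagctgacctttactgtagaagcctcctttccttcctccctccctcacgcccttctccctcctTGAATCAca
The 2 genes with this match moved in opposite directions, and whether the match had a part in either was not tested. Tyrobp itself stood at 854 ± 13.3 normalized CPM in control and 950 ± 13.9 in LPS (SD, n = 3), higher by 0.15 on the log2 scale (edgeR adjusted p = 4.35e-04) that turned to -0.25 with library size alone and was 0.01 and not past the threshold under the upper quartile.

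Trem1, the activating receptor that shares DAP12 with Trem2 and lies near it, moved the other way and much further. Its counts were 4, 7 and 8 in control and 690, 605 and 713 after LPS, a log2 fold change of 7.16 ± 0.15 (SE, n = 3; edgeR adjusted p = 1.01e-17). Of the 5 other TREM family genes 4 were tested, and 2 rose (Trem1, and Treml4 on 5, 2 and 0 counts in control against 11, 10 and 14 after LPS), 1 fell (Treml2) and 1, Treml1, did not pass (adjusted p = 0.0855; lower past the threshold with library size alone and under the upper quartile). Trem1 and Treml4 passed the filter on low counts through the LPS libraries alone, so only a rise could be called for them. The ratio of Trem2 to Trem1 per kilobase was 4400, 2296 and 2005 in control and 15.1, 17.8 and 15.0 in LPS libraries. That is a log2 difference of -7.42, with control ratios that rest on few Trem1 counts (exact permutation p = 0.1, the smallest possible, adjusted 0.14).

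**Figure D2:**
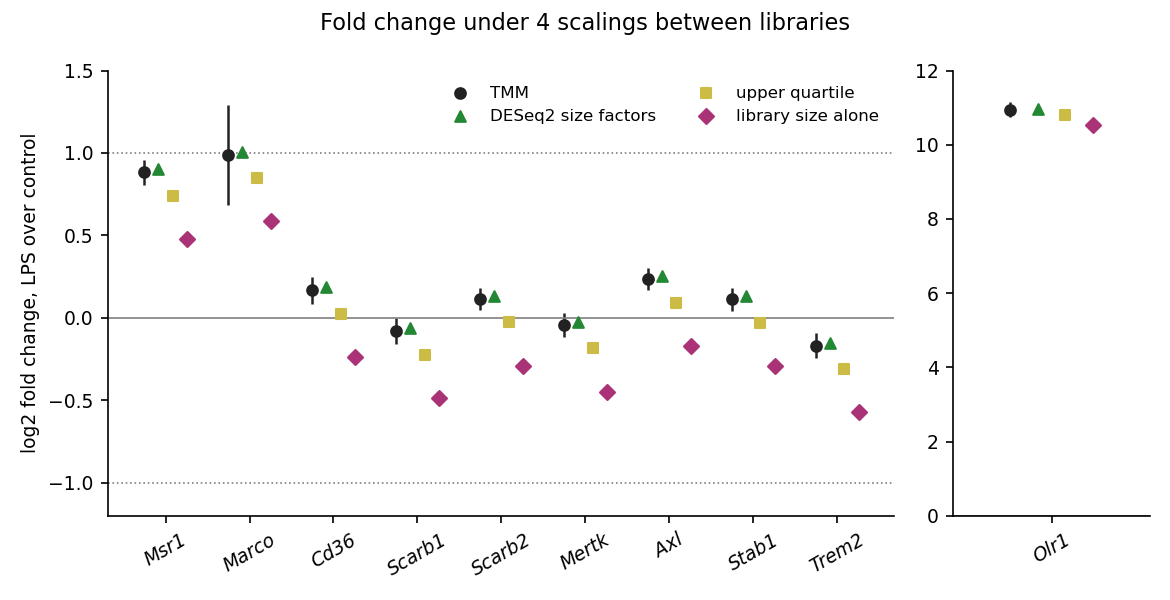
Log2 fold change of LPS over control for each receptor under 4 scalings between libraries, with 95% intervals for TMM and dotted lines at 1 and -1; Olr1 has its own axis. Cd36, Scarb2, Axl and Stab1 are above 0 with TMM and below 0 with library size alone, Olr1, Msr1 and Marco are above 0 under all 4, and Trem2, Scarb1 and Mertk are below.

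The sign of 4 of the small differences, Cd36, Scarb2, Axl and Stab1, depended on how libraries were scaled. TMM factors were 1.15 in each control library and 0.864 to 0.872 in LPS libraries. Using library size alone moved the median log2 fold change of all genes from -0.01 to -0.42, and upper quartile scaling moved it to -0.16. Relative to the median of all genes, Cd36, Scarb2, Stab1 and Axl were at 0.18, 0.13, 0.12 and 0.25, and Trem2 was at -0.16.

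Levels per kilobase placed Cd36 first in both groups, at 184 ± 7.84 RPKM in control (SD, n = 3) and 207 ± 8.28 in LPS. Stab1 followed with 155 ± 4.45 and 167 ± 2.84, and Trem2 with 119 ± 3.70 and 106 ± 3.42. In control the order went on with Scarb2 at 39.8, Axl at 27.2, Mertk at 25.2, Msr1 at 23.6, Scarb1 at 9.68, Marco at 0.926 and Olr1 at 0.0161 RPKM, and no neighbours in it had overlapping ranges. In LPS libraries Msr1 at 43.5 RPKM had moved up beside Scarb2 at 43.0, with overlapping ranges. Olr1 at 33.3 stood beside Axl at 32.0, also with overlapping ranges, followed by Mertk at 24.5, Scarb1 at 9.16 and Marco at 1.84. The 2 genes that gained places were Olr1, from the tenth to the sixth, and Msr1, from the seventh to the fourth.

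Shares of the summed RPKM of the 10 genes do not depend on scaling. Olr1 made up 0.00297, 0.00214 and 0.00312% of the sum in control and 4.88, 5.01 and 5.08% in LPS libraries. The share of Msr1 was 4.04, 3.98 and 4.08% in control and 6.56, 6.28 and 6.70% in LPS. Trem2 went from 20.8, 20.6 and 19.9% to 15.6, 16.6 and 15.6%, and Mertk from 4.31, 4.26 and 4.35% to 3.63, 3.79 and 3.58%. Shares of Cd36 overlapped between the groups, at 31.6, 30.4 and 32.6% in control and 31.5, 29.7 and 31.7% in LPS libraries. A share falls where other members rise, so these values give the makeup of the set and not single genes' changes.

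**Figure D3:**
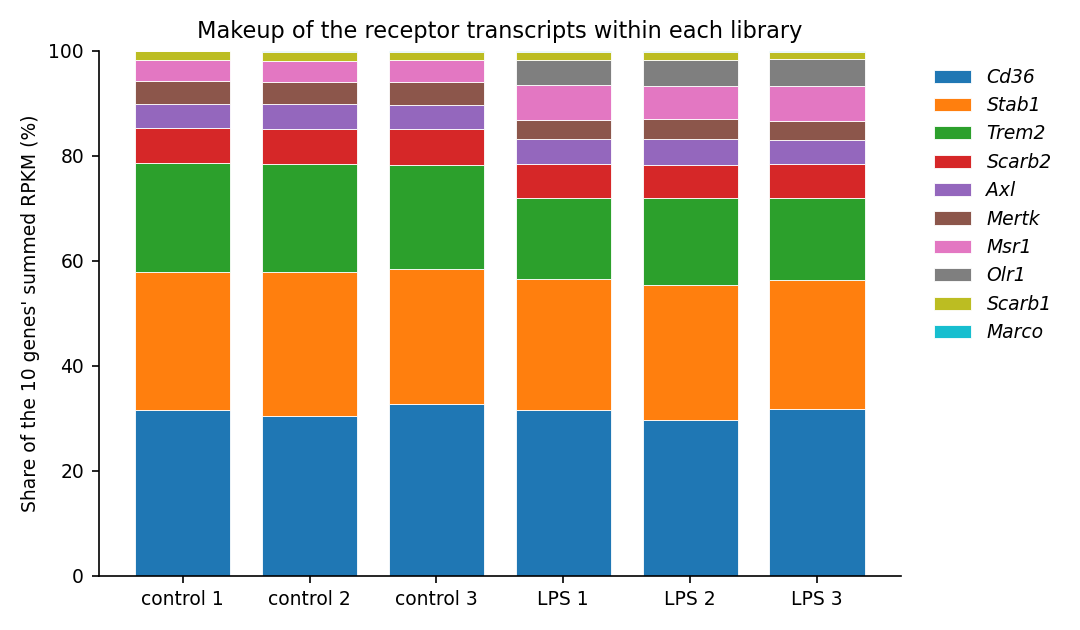
Share of the summed RPKM of the 10 receptors (%) in each of the 6 libraries, stacked by gene. Cd36, Stab1 and Trem2 hold most of the sum in every library, Trem2 is 19.9 to 20.8% in control and 15.6 to 16.6% in LPS libraries, and Olr1 is visible in the LPS bars alone, at 4.88 to 5.08%.

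Around the receptor genes, neighbours within 100 kb of either end were examined after their values were seen. Over all genes tested, 10.5% passed both criteria upward and 10.4% downward. Near Olr1, in the cluster of C-type lectin genes, 1 of the 7 neighbours tested passed both criteria upward, Klrd1 with 15 to 29 counts in control against 29 to 41 after LPS (log2 fold change 1.24, adjusted p = 6.24e-04). Clec7a, the gene of the beta-glucan receptor dectin-1, was higher by 0.69 (edgeR adjusted p = 2.84e-10; 0.29 with library size alone), and Clec1b, Clec9a and Clec1a did not pass. Also near Olr1, Gm44243 (-0.90, edgeR adjusted p = 0.00754) and Gabarapl1 (-0.11, adjusted p = 0.0354) were lower. Near Trem2, Trem1 and Treml4 rose and Treml2, B430306N03Rik and Oard1 fell past both criteria, 5 of the 7 tested, with Treml2 at -1.06. Near Scarb2, the chemokine genes Cxcl10 (5.02) and Cxcl11 (7.60) passed upward, 2 of 4 tested. Cd36 had Sema3c (1.53) and Gnat3 (1.16, on 12 to 19 counts in control against 22 to 27 after LPS), both of 2 tested. Scarb1 had 1 of 5 past both criteria, downward, which was Gm42633 inside it. Stab1 had 1 of 7, also downward, Tnnc1 (-1.46, on 26 to 46 counts in control against 8 to 11 after LPS). Mertk and Axl had 0 of 2 and 0 of 7 past both criteria, and Msr1 and Marco had no tested neighbour. Of the neighbours named, Trem1, Treml4 and Cxcl11 passed the filter on low counts only through the LPS libraries. Gm42633 and Tnnc1 passed it only through the control libraries.

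**Figure D4:**
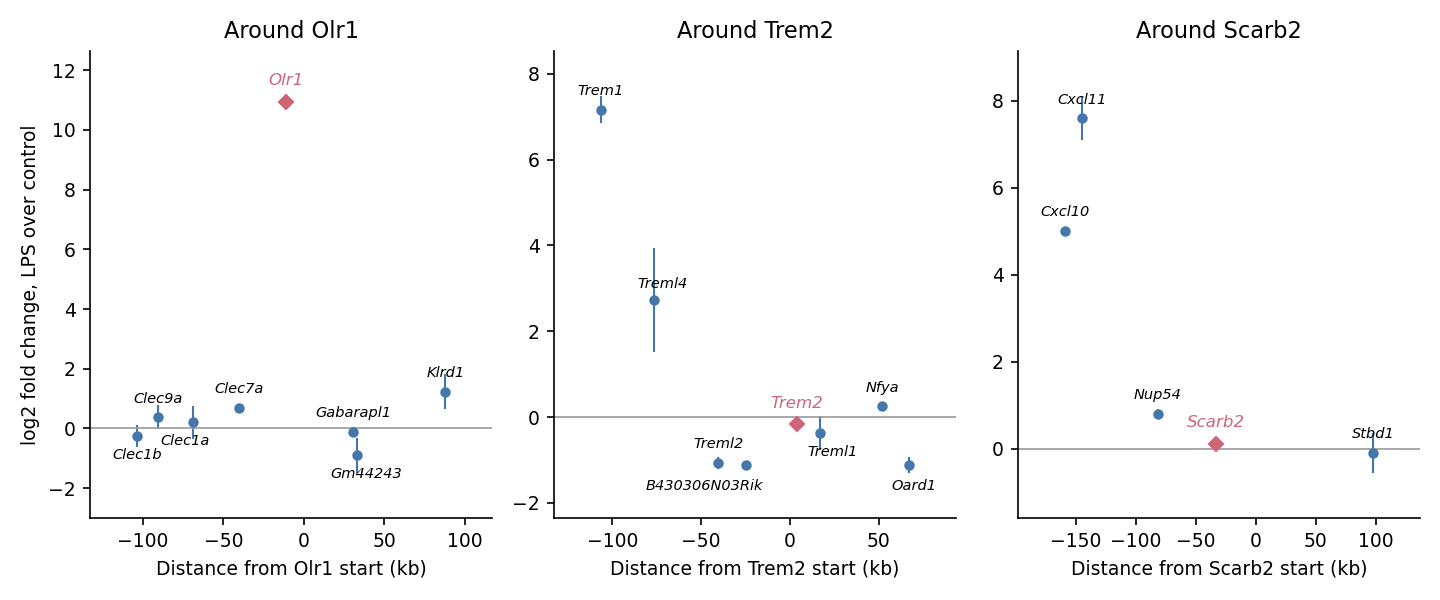
Log2 fold change of LPS over control for the tested genes within 100 kb of either end of Olr1, Trem2 and Scarb2, each placed by the distance of its midpoint from the receptor's start (kb), with 95% intervals and the receptor in red. The receptor stands far above its neighbours at Olr1, where Klrd1 is at 1.24, while at Trem2 and Scarb2 the receptor is near 0 and the neighbours Trem1 (7.16), Cxcl11 (7.60) and Cxcl10 (5.02) stand above it.

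The receptors were also set beside 77 other genes of the same uptake pathways, listed by role, of which 68 were tested. By edgeR's adjusted p, 45 of them rose, 10 fell and 13 did not pass, and 14 rose and 2 fell past both criteria, with a median log2 fold change of 0.19. That is 66.2% higher and 14.7% lower by the adjusted p, beside 32.9% and 34.9% of all genes, and the latter shares are the background of each list in turn. Library size alone turned the count to 20 higher and 44 lower with a median of -0.21, or 29.4% and 64.7% beside 15.0% and 65.9% of all genes, whose median was then -0.42. The upper quartile gave 30 and 18, or 44.1% and 26.5% beside 23.6% and 46.3%. The list counts given with library size alone are read against its 15.0% and 65.9%. Among 13 other scavenger receptors 9 were tested, and 5 rose, 1 fell and 3 did not pass (3 and 6 with library size alone). Cxcl16, a membrane chemokine that also binds oxidized LDL, rose from 188 ± 3.28 to 435 ± 15.7 normalized CPM (SD, n = 3), by 1.21 on the log2 scale (edgeR adjusted p = 1.09e-15; 0.80 with library size alone). Lrp2 also passed both criteria, on 0, 0 and 1 counts in control against 11, 14 and 15 after LPS. Among 12 other receptors for apoptotic cells 9 were tested, and 5 rose, 3 fell and 1 did not pass (1 and 6 with library size alone). Itgav, the alpha chain of integrins that bind the bridging protein Mfge8, rose by 1.97 on the log2 scale (adjusted p = 3.93e-19), and Cd300lb fell by 1.54 (adjusted p = 5.15e-17).

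Bridging proteins were all tested, and 6 of 8 rose, 1 fell and 1 did not pass (2 and 6 with library size alone). Thbs1, whose product thrombospondin-1 binds CD36, rose from 88.8 ± 1.59 to 4250 ± 38.1 normalized CPM (SD, n = 3), by 5.58 on the log2 scale (edgeR adjusted p = 1.82e-24). Edil3 rose by 1.39 (adjusted p = 1.29e-09). Mfge8 was higher by 0.12 (adjusted p = 0.0244), a value that turned to -0.28 with library size alone. It lost the call with at least 10 counts in every library (adjusted p = 0.0509), without control replicate 3 (0.08, adjusted p = 0.151), without LPS replicate 1 (adjusted p = 0.0570) and without LPS replicate 2 (0.07, adjusted p = 0.155). Among signalling adaptors and engulfment genes, 11 of the 16 tested rose, 1 fell and 4 did not pass (3 and 12 with library size alone). Tgm2, a transglutaminase used in engulfment, rose by 4.12 (adjusted p = 8.80e-23), and Abca1, which exports cholesterol, rose by 0.80 (adjusted p = 9.70e-14; 0.39 with library size alone).

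Sheddases and restraint signals rose in 9 of 9 genes by the adjusted p, with a median log2 fold change of 0.49. With library size alone 5 were higher and 3 lower, and the median was 0.09. The list pools genes of different roles, and the metalloproteinase inhibitor gene Timp3 also rose, by 0.90 (edgeR adjusted p = 4.83e-05). Siglecg, 1 of the 9, passed the filter on low counts through the LPS libraries alone. It had 8, 4 and 6 counts in control and 11, 10 and 20 after LPS. Adam17, a protease that can release the ectodomains of MERTK and TREM2, went from 429 ± 2.99 to 604 ± 1.58 normalized CPM (SD, n = 3; log2 fold change 0.49, edgeR adjusted p = 1.36e-10; 0.09 with library size alone). Rhbdf2, which brings ADAM17 to the surface, rose by 1.70 (adjusted p = 7.74e-17). Of 13 nuclear receptors and factors known to drive these receptor genes, 7 rose, 3 fell and 3 did not pass (4 and 9 with library size alone). Klf4 rose by 2.17, Nfe2l2 by 1.64 and Ppard by 1.54. The largest fall in this list was that of Tfeb, at -0.85 (edgeR adjusted p = 2.90e-11). Nr1h3, the gene of liver X receptor alpha, was at 0.10 (adjusted p = 0.138, and -0.30 with library size alone), and Pparg was at -0.02 (adjusted p = 0.765, and 0.0035 with DESeq2 size factors).

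**Figure D5:**
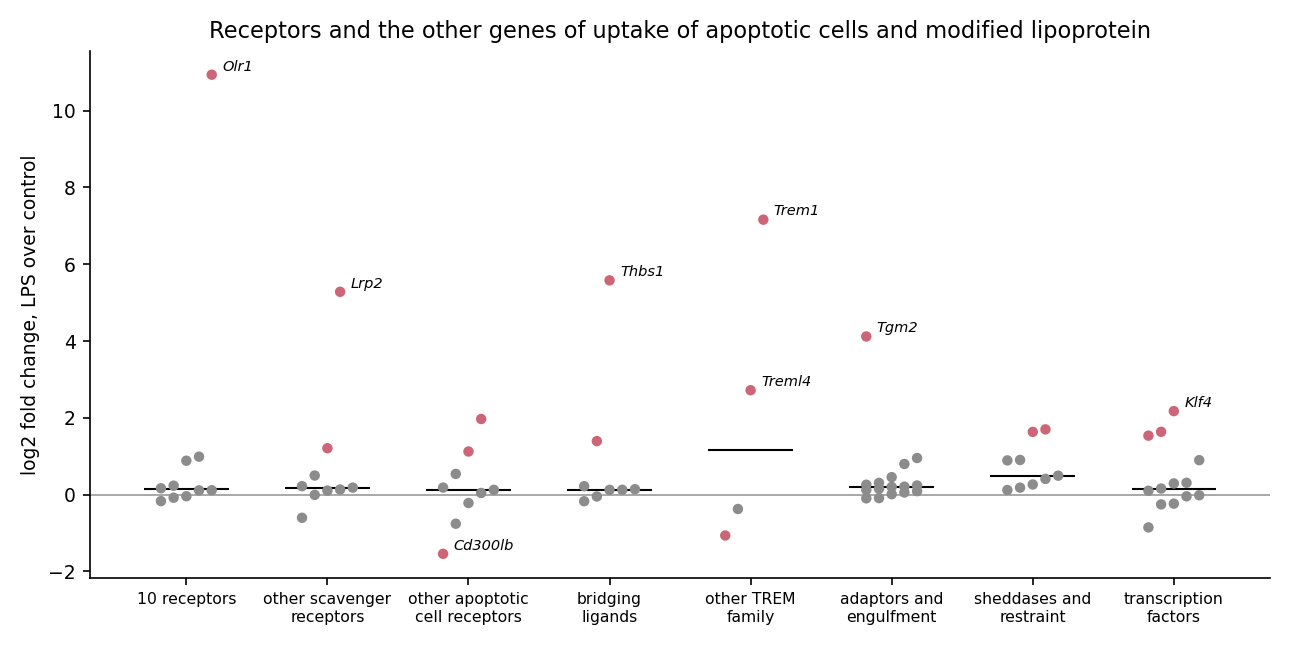
Log2 fold change of LPS over control for the 10 receptors and for each tested gene of the pathway lists, with a black line at each list's median; red points are past both criteria. With TMM scaling, medians of the lists lie between 0.12 and 0.49 (below 0 in 5 lists with library size alone) except for the other TREM family genes, of which 4 were tested, and Olr1 stands alone among the receptors; the Lrp2 point rests on 0, 0 and 1 control counts.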

How the data were processed

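The authors aligned the reads to GRCm38 with HISAT2 2.1.0 and deposited the counts per gene made with featureCounts 2.0.0, without normalization; SAMtools 1.17 and FastQC 0.11.9 are named in the submitters' processing notes. The RNA was 500 ng of total RNA per library, prepared with a stranded kit, but the strand setting and the annotation used in counting are not given in the sources used here, so genes that overlap on opposite strands are uncertain. Of 55335 identifiers, 55154 matched GENCODE M21 without the version suffix and 181 did not; coordinates are from M21, counted from 1, and exon lengths are unions of annotated exons.

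In R 4.3.3, edgeR 4.0.16 was used with filterByExpr (15687 genes), TMM factors and its quasi-likelihood test, p-values were adjusted over all genes by Benjamini-Hochberg, and standard errors were derived from its F statistic. edgeR stands in place of the DESeq2 used by the study, and DESeq2 1.42.0, limma 3.58.1 (voom), edgeR's test against a fold, other scalings, other filters, the replicate block and the omission of each library were alternatives. The common biological coefficient of variation was 0.0426. The functions were tested on simulated counts. Same-numbered samples share a batch by the labels. The correlations of their deviations from the group means were -0.0139, 0.0822 and 0.0387, and the main model has no block, as in the study's pairwise comparison. No pair of replicates agreed within counting noise (chi-square of 5.41 to 20.3 per gene). LPS replicate 3 gave 13.7 with LPS replicate 1 and 20.3 with LPS replicate 2, and the other pairs gave 5.41 to 7.06.

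The members and gene lists were chosen with earlier results of these data known. Named genes were the 10 receptors, 11 partners (Gas6, Pros1, Tyro3, Mfge8, Tyrobp, Trem1, Adam17, Nr1h3, Pparg, Abca1 and 1 that is not reported here), and in each other list up to 3 rises and 3 falls past both criteria with a mean of at least 20 counts and 1 direction in each same-numbered pair; Lrp2, genes inside receptor genes and neighbours were named after their values were seen. Lists of other cell types gave, in sums of normalized CPM, 0.861 to 1.08 in control and 1.10 to 1.49 in LPS libraries for B cells, 21.0 to 23.1 and 30.8 to 31.3 for T and NK cells (nearly all Cd4), 5.84 to 7.07 and 10.2 to 10.9 for mast cells and basophils, 13.5 to 14.6 and 15.2 to 17.6 for stroma, and 35.4 to 38.6 and 45.1 to 48.7 for endothelium.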

Additional observations from a re-analysis of the deposited data

How the results depend on the processing

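Directions of the 3 larger rises (Olr1, Msr1, Marco) and of the Trem2 fall held under every alternative that tested them. The number of receptors past both criteria (1) was 2 with DESeq2 size factors and with DESeq2's Wald test, through Marco, 0 with at least 10 counts in every library, where Olr1 could not be tested, and 1 to 2 without a library. The number higher in LPS (7) was 3 with library size alone and 4 under the upper quartile. The number lower (1) was 7 and 3 with these, 2 with the replicate block, with at least 1 count in any library, with at least 10 in every library and without the 10 genes with the highest mean count, and 1 to 2 without a library (2 without LPS replicate 1); outside these scalings the added gene was Scarb1. The number of pathway genes past both criteria and higher in LPS (14) was 9 with at least 10 counts in every library, since fewer genes are tested.

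Signs turned under library size alone for Cd36 (-0.24), Scarb2 (-0.29), Axl (-0.17), Stab1 (-0.29), Gas6 (-0.28), Mfge8 (-0.28), Tyrobp (-0.25) and Nr1h3 (-0.30), and under the upper quartile for Scarb2 (-0.028), Stab1 (-0.031), Gas6 (-0.016), Mfge8 (-0.018) and Nr1h3 (-0.041). Pparg (-0.02) was 0.0035 with DESeq2 size factors and with DESeq2's Wald test, and without a library it ranged from -0.048 to 0.010, above 0 without control replicate 1 and, at 0.0031, without LPS replicate 2. The replicate block changed no other call than Scarb1 (-0.08, adjusted p = 0.0336, edgeR). The cause of these changes was not tested. Depth limits Olr1, Trem1 and Cxcl11 in control, Marco, Treml4, Siglecg, Timd4, Gnat3, Tnnc1, Gm42633 and Lrp2. The ratios within a library rest on 3 values a group, and their permutation test cannot pass 0.05.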
